A study of Mus musculus with 12 samples.

Results

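Endothelin signalling was followed here through 7 genes, taken by their symbols from the 24421 symbols of the deposited mouse count table. They are the ligand genes Edn1 and Edn3, the converting enzyme gene Ece1, the receptor genes Ednra and Ednrb, and the effector genes Plcb4 and Mef2c. All 7 were in the table and all 7 passed the filter on low counts. The study sequenced RNA from C57Bl/6 embryos with an altered Eftud2, a spliceosomal GTPase gene, in neural crest cells. Its 12 libraries form 4 groups of 3: heterozygous (Eftud2+/-) and homozygous (Eftud2-/-) embryos at embryonic day 9.0 (E9.0), and the same genotypes at E9.5, all untreated. The heterozygous embryos served as controls, so every group carried at least 1 altered Eftud2 allele and no wild-type group was compared. The labels do not name the Cre driver or say how many embryos made a library, and they do not say whether replicates were separate embryos or litters, so p-values measure only the spread between these libraries, which may be technical. The labels also disagree on the tissue: neural crest cells as the source, cranial nerve ganglia as the tissue, and heads in the protocol.

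Endothelins are short peptides that are cut from larger precursors, in the last step by the membrane protease endothelin-converting enzyme, and that act on G protein-coupled receptors. In the pharyngeal arches, Edn1 is made by the epithelium and mesoderm and acts on Ednra on cranial crest cells, where signalling through Gq proteins and phospholipase C (Plcb4) leads, with the transcription factor Mef2c, to lower-jaw genes such as Dlx5, Dlx6 and Hand2. Edn3 and Ednrb form a second pair, known for its role in crest cells that become pigment cells and enteric neurons.

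The 250 bases before the transcript start of both ligand genes and both receptor genes are shown because the ligand to ligand and receptor to receptor ratios are described below, and each gene has 1 promoter window in the RefSeq table. They come from RefSeq on GRCm38.p6 and read 5′ to 3′ on the gene's strand: Edn1 chr13:42301226-42301475 (+), Edn3 chr2:174760369-174760618 (+), Ednra chr8:77724453-77724702 (-) and Ednrb chr14:103843702-103843951 (-). Starts differ between annotations. In GENCODE M21 the Ednrb gene runs to position 103844402, so the whole Ednrb window lies inside that annotated gene. The Ednra gene runs to 77724464 there, so its window overlaps the gene by a few bases. Capitals mark the letters ACAAT, the core that SOX factors bind, read on either strand (ATTGT on the other).
Edn1: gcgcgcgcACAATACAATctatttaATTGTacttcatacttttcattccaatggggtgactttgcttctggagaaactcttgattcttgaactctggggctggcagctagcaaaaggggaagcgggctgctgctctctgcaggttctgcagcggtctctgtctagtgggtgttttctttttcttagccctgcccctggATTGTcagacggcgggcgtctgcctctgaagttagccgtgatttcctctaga
Edn3: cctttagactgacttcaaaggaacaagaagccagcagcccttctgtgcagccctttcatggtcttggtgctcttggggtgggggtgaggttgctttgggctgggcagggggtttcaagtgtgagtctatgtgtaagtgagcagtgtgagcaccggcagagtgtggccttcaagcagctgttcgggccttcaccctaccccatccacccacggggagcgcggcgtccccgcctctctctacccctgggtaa
Ednra: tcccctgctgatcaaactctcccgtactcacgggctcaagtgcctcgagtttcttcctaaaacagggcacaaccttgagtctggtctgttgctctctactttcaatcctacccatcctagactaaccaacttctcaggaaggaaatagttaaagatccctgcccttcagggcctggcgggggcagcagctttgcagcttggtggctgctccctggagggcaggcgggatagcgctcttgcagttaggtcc
Ednrb: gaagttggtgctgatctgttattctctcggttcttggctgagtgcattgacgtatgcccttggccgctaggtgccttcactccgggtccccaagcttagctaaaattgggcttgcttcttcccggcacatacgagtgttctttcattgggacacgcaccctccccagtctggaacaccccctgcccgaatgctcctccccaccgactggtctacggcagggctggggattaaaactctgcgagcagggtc
The ACAAT core occurred 4 times in the Edn1 window and was not found in the other windows. It occurred in 27.7% of 32851 windows of the same length. TATAAA (12.4% of windows), GGGCGG (32.7%), the MEF2 core (3.2%) and TGANTCA, an AP-1-type site (6.75%), each searched on both strands, had no match in these 4 windows. These matches are descriptions of letters, not of bound sites.

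Library totals ran from 13914543 to 31172708 counts. The heterozygous E9.0 replicate 1 library stood apart: the ribosomal RNA precursor gene Rn45s took 37.4% of its counts. The share was 6.05 to 16.2% in the other E9.0 libraries and 4.4 to 5.9% in the E9.5 libraries, so it differed between the stages without overlap. Levels are therefore given as CPM (counts scaled by library size) after TMM scaling, which sets libraries to a common scale through genes that vary little. Eftud2 ranged from 275 to 302 CPM in heterozygous and from 232 to 236 CPM in homozygous libraries at E9.0 (log2 fold change -0.29 ± 0.05 SE, edgeR adjusted p = 0.0193). At E9.5 it ranged from 248 to 264 against 221 to 226 CPM (-0.19 ± 0.05, adjusted p = 0.0906), again without overlap between the genotypes. Transcripts of many cell types were present. The summed level of 15 crest markers was 331 to 552 CPM, of 8 brain markers 355 to 500 CPM, of 12 endothelial markers 195 to 403 CPM and of 6 erythroid markers 549 to 5280 CPM. Of the 8 cranial ganglion markers, Prrxl1 reached at most 0.235 CPM and Prph at most 0.798 CPM. In such mixed samples, fewer cells of a type and less RNA per cell cannot be told apart.

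Per kilobase of exon, Ece1 was the most abundant of the 7 genes and stood apart from the rest in all 4 groups. In heterozygous libraries at E9.0 it had 16.7 ± 1.74 CPM per kilobase (SD, n = 3), followed by Ednrb at 5.18 ± 0.852 and Ednra at 4.95 ± 0.459, whose ranges overlapped. Mef2c (2.98), Plcb4 (2.80), Edn1 (2.48) and Edn3 (1.89 CPM per kilobase) came next, with ranges that did not overlap. In heterozygous libraries at E9.5, Ednrb (8.81 ± 0.647 CPM per kilobase) stood clear of Ednra (3.45 ± 0.341), Ednra overlapped with Edn3 (3.01 ± 0.283), and Mef2c, Edn1 and Plcb4 overlapped with their neighbours at 2.40, 2.18 and 1.96 CPM per kilobase. The order below Ece1 depends on the length used: with the longest transcript in place of all exons, Mef2c had 7.45 CPM per kilobase at E9.0 and lay beside Ednra (7.47) above Ednrb (5.38). On GRCm38 (GENCODE M21), a 35-base stretch of Edn1's exons overlaps the antisense gene Gm47118, and a 91-base stretch of Ednra's exons overlaps 4933431K23Rik on the other strand. Neither partner has a row in the count table, and whether counting used strand is not given in the sources used here.

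**Figure D1:**
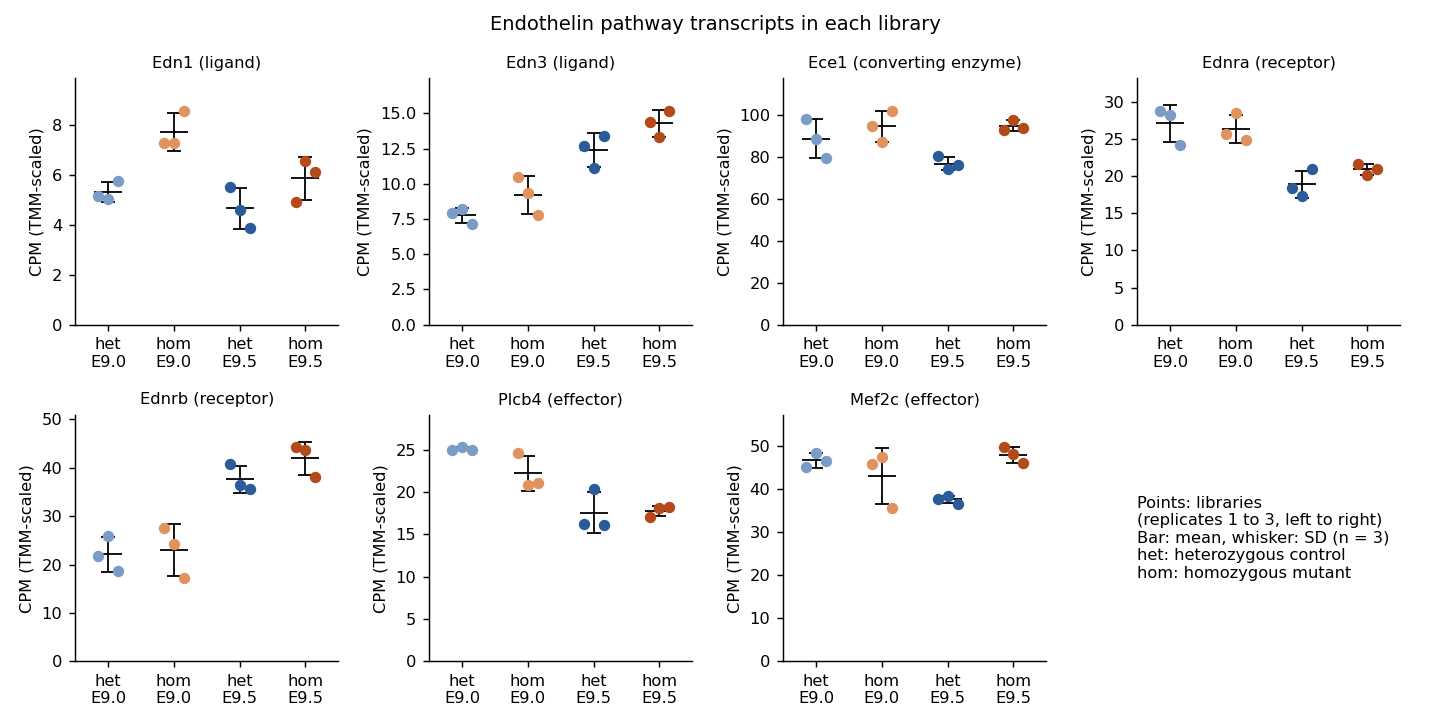
Level of each of the 7 genes in every library, in TMM-scaled CPM (y axis, linear, from 0), by genotype and stage (x axis). Points are libraries, bars are means and whiskers are SD (n = 3). Edn3 and Ednrb lie higher at E9.5 than at E9.0 in both genotypes, and Ednra lies lower.

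The first comparison asked how the genes differed between the stages. In both genotypes, the Edn3 and Ednrb pair rose from E9.0 to E9.5 while the receptor gene Ednra and its downstream enzyme gene Plcb4 fell. In heterozygous libraries 2 of the 7 genes were called higher at E9.5, against 19.2% of all 14810 tested genes. Another 4 were called lower (Ednra, Plcb4, Mef2c and Ece1), against 16%. In homozygous libraries 2 were called higher (19.6% of all tested genes) and 2 lower (15.8%). Changes with stage were common, in 35.2% of all tested genes in heterozygous and 35.4% in homozygous libraries. CPM ranges of the stages did not overlap for 5 of 7 genes in each genotype, against 47.7% of tested genes in heterozygous and 48.2% in homozygous libraries. Calls are edgeR quasi-likelihood tests with Benjamini-Hochberg adjusted p under 0.05 over all tested genes.

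Of the ligands, heterozygous libraries held Edn3 at 7.93, 8.21 and 7.14 CPM at E9.0 and at 12.7, 11.1 and 13.4 CPM at E9.5. Every E9.5 library lay above every E9.0 library, with a log2 fold change of 0.68 ± 0.12 SE (95% interval 0.43 to 0.93, adjusted p = 3.41e-04). In homozygous libraries Edn3 had 10.5, 9.34 and 7.77 CPM at E9.0 and 14.4, 13.3 and 15.2 CPM at E9.5 (0.64 ± 0.12, adjusted p = 5.59e-04), again without overlap. Edn1, the jaw-patterning ligand gene, had 5.14, 5.04 and 5.76 CPM at E9.0 and 5.52, 4.58 and 3.87 CPM at E9.5 in heterozygous libraries. These ranges overlapped, and the stage difference of -0.19 ± 0.16 did not pass the test (95% interval -0.53 to 0.14, adjusted p = 0.369). In homozygous libraries Edn1 had 7.29, 7.27 and 8.58 CPM at E9.0 and 4.92, 6.57 and 6.11 CPM at E9.5. Here the ranges did not overlap, and the difference of -0.39 ± 0.15 missed the threshold (adjusted p = 0.0558), passing it without homozygous E9.5 replicate 2 (0.0461). It also passed in 3 of 10 other alternatives, with RLE scaling or with only the compared groups (0.0495 each) and with the GC and length correction (-0.54, adjusted p = 0.00747).

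The receptor genes moved in opposite directions. Ednrb had 21.7, 25.9 and 18.7 CPM in heterozygous libraries at E9.0 and 40.7, 36.4 and 35.6 CPM at E9.5, with no overlap (0.77 ± 0.14, 95% interval 0.46 to 1.08, adjusted p = 9.38e-04). In homozygous libraries Ednrb rose from 27.5, 24.3 and 17.2 CPM to 44.2, 43.6 and 38.0 CPM (0.87 ± 0.15, adjusted p = 3.87e-04). Ednra had 28.8, 28.2 and 24.2 CPM in heterozygous libraries at E9.0 and 18.4, 17.3 and 20.9 CPM at E9.5, with no overlap (-0.52 ± 0.09, 95% interval -0.71 to -0.32, adjusted p = 4.18e-04). Its homozygous libraries had 25.6, 28.5 and 24.9 CPM at E9.0 and 21.6, 20.1 and 21.0 CPM at E9.5 (-0.34 ± 0.09, adjusted p = 0.00997). The homozygous Ednra call was lost without the E9.0 replicate 2 library (adjusted p = 0.056).

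The balance between the receptor genes and between the ligand genes was taken as a ratio of counts per kilobase of exon within each library. This ratio does not depend on scaling between libraries. Its level depends on the gene length used, while its log2 difference between groups does not. With the longest transcript, heterozygous E9.0 means were 5.38 CPM per kilobase for Ednrb and 7.47 for Ednra. For Edn3 and Edn1 they were 2.49 and 2.48 CPM per kilobase. The Ednrb to Ednra ratio went from 1.04 (geometric mean) at E9.0 to 2.56 at E9.5 in heterozygous libraries, and from 1.10 to 2.57 in homozygous libraries. The log2 differences between the stages were 1.30 and 1.22, and the stages did not overlap in either genotype. The Edn3 to Edn1 ratio went from 0.759 to 1.39 in heterozygous and from 0.618 to 1.27 in homozygous libraries, a log2 difference of 0.88 and 1.04 without overlap. Each of these 4 stage differences had an exact two-sided permutation p of 0.1, the smallest that 3 libraries against 3 can give, and an adjusted p of 0.171 over 12 ratio comparisons. Between genotypes the Ednrb to Ednra ratio differed by 0.08 on the log2 scale at E9.0 and by 0.01 at E9.5, and the libraries overlapped.

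**Figure D2:**
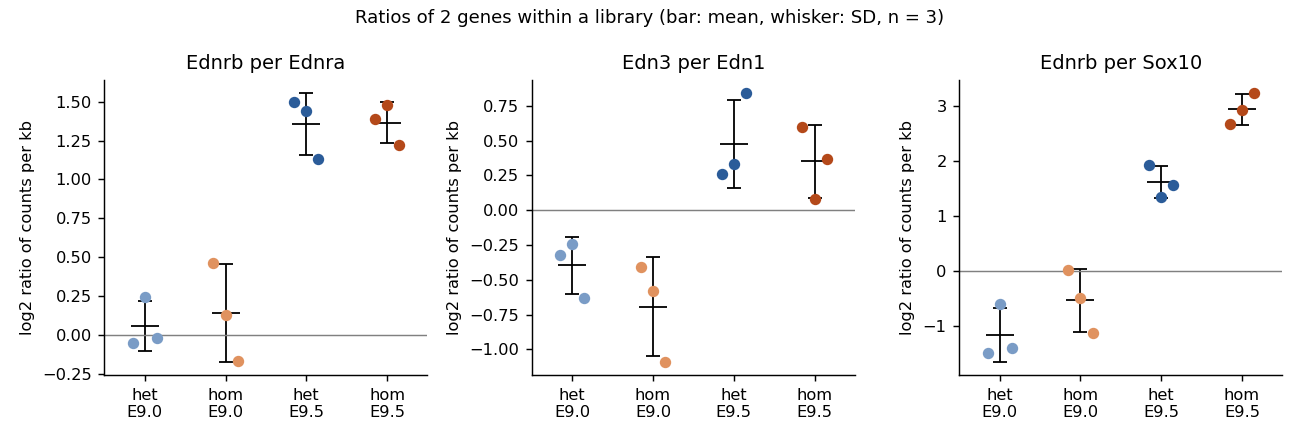
Ratio of counts per kilobase of exon within each library on a log2 axis, for Ednrb to Ednra, Edn3 to Edn1 and Ednrb to Sox10, by genotype and stage. Points are libraries and bars are group means. The Ednrb to Ednra ratio centres near 1.04 at E9.0 and 2.56 at E9.5 in heterozygous libraries, and the homozygous libraries overlap them at each stage.

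Ece1 encodes the protease that makes the active peptides. It had 98.1, 88.3 and 79.6 CPM in heterozygous libraries at E9.0 and 80.2, 74.0 and 76.1 CPM at E9.5. The ranges overlapped, and the fall of 0.20 ± 0.07 on the log2 scale (adjusted p = 0.0406) was lost in 4 of 6 fits that left out a library, among them the one without the Rn45s-rich heterozygous E9.0 replicate 1 (adjusted p = 0.191), and those without E9.0 replicate 2 (0.0854), E9.5 replicate 2 (0.11) or E9.5 replicate 3 (0.0963). It was kept in 3 of 10 other alternatives. In homozygous libraries the Ece1 stage difference was 0.01 ± 0.07. Plcb4, the phospholipase C gene, had 25.0, 25.3 and 25.0 CPM at E9.0 and 16.2, 20.4 and 16.1 CPM at E9.5 in heterozygous libraries, with no overlap (-0.51 ± 0.10, adjusted p = 6.87e-04). In homozygous libraries it had 24.6, 20.9 and 21.1 CPM and then 17.1, 18.1 and 18.2 CPM (-0.32 ± 0.10, adjusted p = 0.0201). That call was lost without the homozygous E9.0 replicate 1 (adjusted p = 0.105) or E9.5 replicate 1 library (0.0705).

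Mef2c, the transcription factor gene, had 45.1, 48.5 and 46.6 CPM in heterozygous libraries at E9.0 and 37.8, 38.5 and 36.7 CPM at E9.5. Every E9.5 library lay below every E9.0 library, a fall of 0.31 ± 0.08 on the log2 scale (adjusted p = 0.00914). In homozygous libraries Mef2c had 46.0, 47.6 and 35.7 CPM at E9.0 and 49.8, 48.3 and 46.1 CPM at E9.5, with overlap and no call (0.16 ± 0.09, adjusted p = 0.169). Replicate 3 of the homozygous E9.0 group was the low library. Without the Rn45s-rich library the heterozygous calls of Edn3, Ednrb, Ednra, Plcb4 and Mef2c held, at 0.69, 0.76, -0.47, -0.51 and -0.33.

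Scaling set the sign of some of these stage differences. With total counts only, the median of all genes moved to 0.38 in heterozygous and 0.18 in homozygous libraries, and calls on members fell to Edn3 and Ednrb in each genotype; Mef2c and Ece1 then differed by 0.05 and 0.18 in heterozygous libraries. Relative to that median they were -0.32 and -0.20, close to the TMM values. Subtracting the median is itself a rescaling that comes near to TMM, so this closeness does not decide between the signs. Marker levels of other cell types also differed between the stages. All 10 heart muscle markers rose in both genotypes (medians 3.68 and 3.48 on the log2 scale), with a summed level of 69.3 to 329 CPM at E9.0 and 1900 to 2980 CPM at E9.5. Mef2c is also used in heart muscle and endothelium. In heterozygous libraries 9 of 15 crest markers were called lower and 2 higher (median -0.50), and 6 of 12 endothelial markers were called lower (median -0.40). In homozygous libraries 8 of 15 crest markers were called lower and 1 higher (median -0.37), while 2 of 12 endothelial markers were called higher and 1 lower (median 0.10). All 6 erythroid markers rose in both genotypes (medians 2.03 and 1.96), and of 6 neuron markers 5 were called higher in heterozygous and 4 in homozygous libraries (medians 1.53 and 1.40). Of 7 tested cranial ganglion markers 5 were called higher in each genotype and none lower (medians 1.32 and 1.43). Of 8 brain markers 3 were called lower in heterozygous and 5 in homozygous libraries, and none higher (medians -0.30 and -0.41). The Rn45s share also separated the stages, at 6.05 to 37.4% of counts at E9.0 and 4.4 to 5.9% at E9.5. TMM factors were 0.664 to 1.05 at E9.0 and 1.09 to 1.11 at E9.5. The part of these cell types and of the Rn45s share in the stage differences was not tested.

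**Figure D3:**
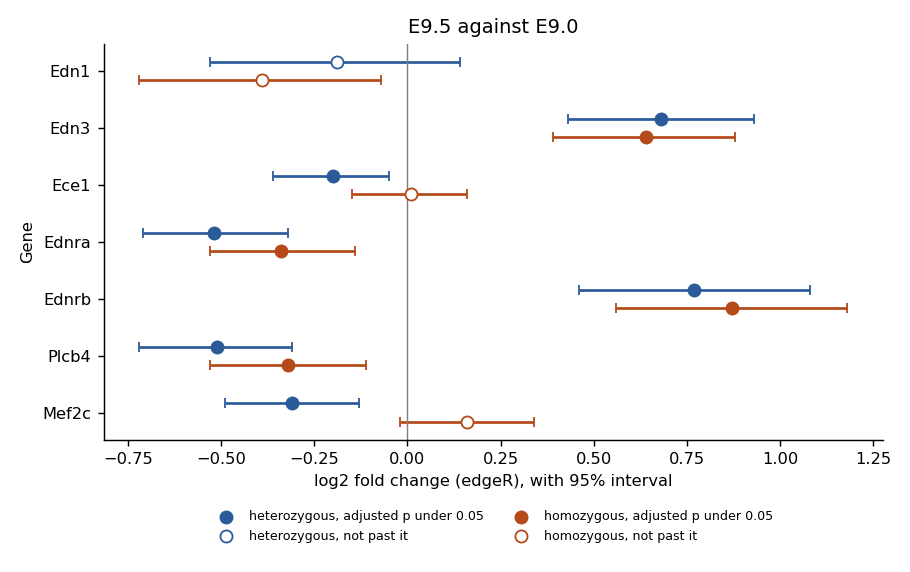
Log2 fold change of each gene at E9.5 against E9.0 (x axis, edgeR, with 95% interval) in heterozygous and homozygous libraries; filled points passed adjusted p under 0.05. Edn3 (0.68 and 0.64) and Ednrb (0.77 and 0.87) lie above 0, and Ednra (-0.52 and -0.34) and Plcb4 (-0.51 and -0.32) lie below.

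The second comparison, homozygous against heterozygous embryos, asked how these genes differed with the Eftud2 genotype. At E9.0 none of the 7 genes passed the test. At E9.5 Ece1 and Mef2c were higher in homozygous libraries, by 0.30 and 0.35 on the log2 scale, and no member was called lower. The receptor genes did not pass the test at either stage. The stage and genotype comparisons share libraries, so their values are not independent.

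At E9.0 edgeR called 0 of 7 genes, against 0.587% of all tested genes, as did DESeq2 and limma-voom. By unadjusted p under 0.05 there was 1 gene of 7, Edn1, against 13.3% of all tested genes, a share near that background. Edn1 had 5.14 to 5.76 CPM in heterozygous and 7.27 to 8.58 CPM in homozygous libraries, so the groups did not overlap. Its difference was 0.53 ± 0.16 (95% interval 0.19 to 0.87, edgeR adjusted p = 0.172). Plcb4 was the other gene without overlap, lower in the homozygous libraries at -0.18 ± 0.10 (adjusted p = 0.446). CPM ranges did not overlap for 2 of 7 genes, against 17.3% of all tested genes. The 7 differences had a median of 0.06, with 4 above 0.

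At E9.5 edgeR called 2 of 7 genes, both higher, against 1.89% of all tested genes called and 1.19% called higher. Ece1 had 80.2, 74.0 and 76.1 CPM in heterozygous and 92.6, 97.6 and 93.9 CPM in homozygous libraries, without overlap (0.30 ± 0.07, 95% interval 0.15 to 0.46, adjusted p = 0.0424). Mef2c had 37.8, 38.5 and 36.7 CPM against 49.8, 48.3 and 46.1 CPM, also without overlap (0.35 ± 0.08, 95% interval 0.17 to 0.53, adjusted p = 0.0400). Both calls sit near the threshold: each was lost in all 6 fits that left out any E9.5 library (highest adjusted p 0.163 for Ece1 and 0.138 for Mef2c) and with total counts only (0.563 and 0.599). The fold changes stayed between 0.28 and 0.34 for Ece1 and between 0.33 and 0.38 for Mef2c in the fits that left out a library. Ranges did not overlap for 2 of 7 genes (20.9% of all tested genes). All 7 differences lay above 0, with a median of 0.21 against 0.00 over all tested genes.

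The remaining genes at E9.5 were not called. Edn1 had 5.52, 4.58 and 3.87 CPM in heterozygous and 4.92, 6.57 and 6.11 CPM in homozygous libraries, with overlap (0.33 ± 0.15, 95% interval 0.01 to 0.65, adjusted p = 0.345). Edn3 differed by 0.21 ± 0.11 (adjusted p = 0.439). For the receptors, Ednra differed by 0.15 ± 0.09 (95% interval -0.05 to 0.34) and Ednrb by 0.16 ± 0.14 (95% interval -0.13 to 0.45). At E9.0 their intervals were -0.23 to 0.17 for Ednra and -0.26 to 0.39 for Ednrb. Plcb4 differed by 0.02 ± 0.10 (adjusted p = 0.971). Averaged over both stages, Edn1 was the only gene called, higher in homozygous libraries by 0.43 ± 0.11 (95% interval 0.20 to 0.66, adjusted p = 0.0446), against 2.96% of all tested genes called. That call held in 2 of 12 fits that left out a library, those without heterozygous E9.5 replicate 1 (0.0227) or homozygous E9.5 replicate 1 (0.0284), with adjusted p up to 0.117 in the other 10, and was lost with limma-voom. Averaged Ece1 was at 0.20 ± 0.05 with an adjusted p of 0.0502, and passed without the Rn45s-rich library (0.0134) or homozygous E9.0 replicate 2 (0.0269).

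Whether the genotype difference changed with stage was tested as an interaction, where edgeR called 0 of 7 genes against 0.0675% of all tested genes. An unadjusted p under 0.05 was found for 1 gene of 7, against 8.6% of all tested genes. It was Mef2c, at 0.47 ± 0.12 (95% interval 0.21 to 0.72, adjusted p = 0.237), and DESeq2 called it (adjusted p = 0.045) while limma-voom called 0. For Ece1 the interaction was 0.21 ± 0.10 (adjusted p = 0.607).

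**Figure D4:**
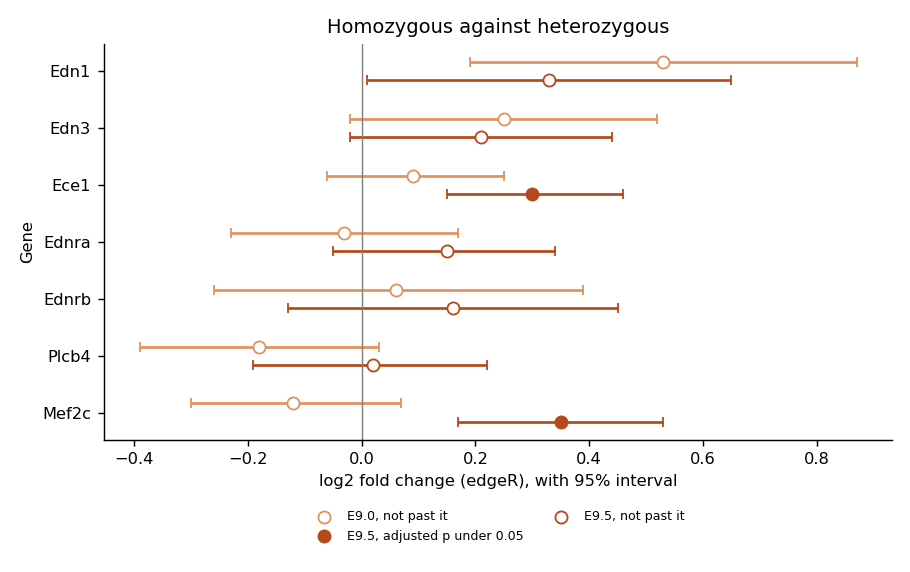
Log2 fold change of each gene in homozygous against heterozygous libraries (x axis, edgeR, with 95% interval) at E9.0 and E9.5; filled points passed adjusted p under 0.05. Ece1 (0.30) and Mef2c (0.35) at E9.5 are the filled points, and Edn1 lies at 0.53 at E9.0 and 0.33 at E9.5.

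Marker levels of other cell types also differed between the genotypes at E9.5, in both directions. All 12 endothelial markers lay above 0, with a median of 0.64, and 8 were called higher in homozygous libraries (1.19% of all tested genes). Their summed level was 270, 195 and 280 CPM in heterozygous and 403, 355 and 382 CPM in homozygous libraries at E9.5, and 305 to 329 against 363 to 373 CPM at E9.0. All 10 heart muscle markers lay above 0, with 1 call (median 0.32, summed level 1900 to 2580 against 2250 to 2980 CPM). All 7 arch mesoderm markers lay above 0, with 2 calls (median 0.59, 78.5 to 81.3 against 102 to 124 CPM). Of 8 arch epithelium markers 7 lay above 0, with 2 calls (median 0.29, 283 to 327 against 342 to 419 CPM). At E9.0 neither list had a call, with summed levels of 77.7 to 95.7 against 87.8 to 103 CPM for arch mesoderm and 306 to 364 against 385 to 407 CPM, without overlap, for arch epithelium. The 6 neuron markers all lay below 0 at E9.5, with 1 call (median -0.33, 181 to 207 against 135 to 147 CPM). Of 8 brain markers En2 (-4.64, adjusted p = 6.94e-04) and Wnt1 (-0.93, adjusted p = 0.00914) were called lower (median -0.02, 355 to 500 against 361 to 405 CPM). Of 7 tested cranial ganglion markers Pou4f1 was called lower (-0.95, adjusted p = 0.0107, median 0.07, 61.7 to 65.0 against 63.2 to 64.8 CPM). All 6 erythroid markers lay below 0 without a call (median -0.20, 4040 to 5280 against 2830 to 5190 CPM). Edn1, Ece1 and Mef2c are known in endothelium and Edn1 in arch epithelium, and the part of these cell types in their differences was not tested.

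**Figure D5:**
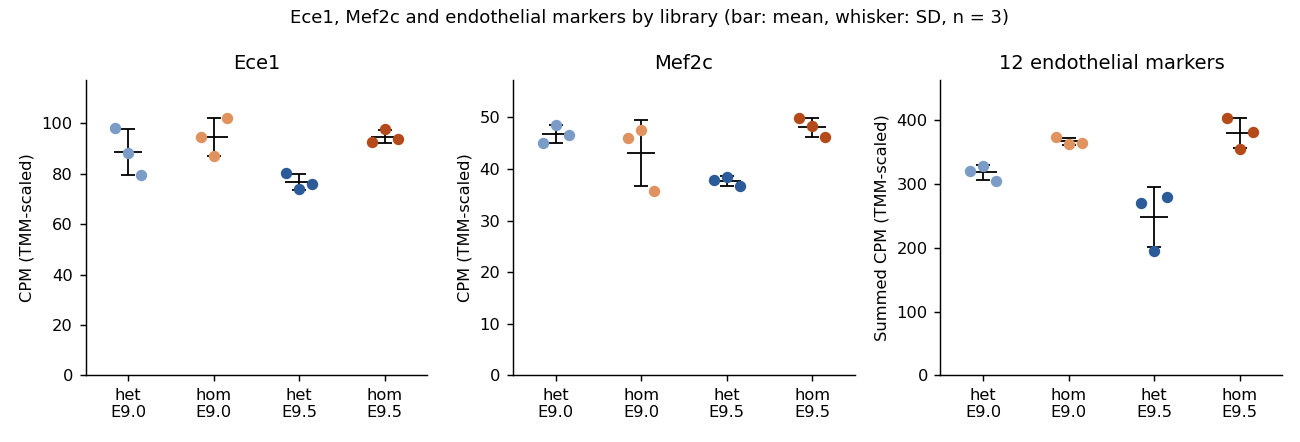
Ece1, Mef2c and the summed level of 12 endothelial markers in every library, in TMM-scaled CPM (y axes, linear, from 0), by genotype and stage. Points are libraries, bars are means and whiskers are SD (n = 3). At E9.5 the homozygous libraries lie above the heterozygous ones in all 3 panels, with summed marker levels of 355 to 403 against 195 to 280 CPM. The arch mesoderm and arch epithelium sums, not drawn, were also higher in homozygous libraries without overlap.

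Other genes of the pathway were read from a list of 17, of which 15 were tested; Edn2, a ligand gene, and Mef2b reached at most 0.135 CPM. At E9.0 none of the 15 was called between genotypes. At E9.5 only 1 was called, against 1.89% of all tested genes: Mef2a, a relative of Mef2c. Mef2a was higher, at a mean of 61.6 CPM in homozygous libraries (0.30 ± 0.07, adjusted p = 0.0285). It kept its call in 2 of 6 fits that left out a library, was lost without heterozygous replicate 1 or 2 or homozygous replicate 2 or 3 at E9.5 (adjusted p up to 0.147), and was lost with total counts only (0.658). The precursor protease gene Furin differed by 0.26 ± 0.09 (adjusted p = 0.158) and the endothelin-degrading Mme by 0.32 ± 0.14 (adjusted p = 0.36). The second converting enzyme gene, Ece2, lay lower, at 18.0 against 15.8 CPM (-0.19 ± 0.10, adjusted p = 0.404). The G protein genes Gnaq and Gna11 differed by -0.01 ± 0.05 and 0.00 ± 0.08. The list's median was 0.18 at E9.5 and 0.01 at E9.0. Between stages, 1 of the 15 was called higher and 3 lower in heterozygous libraries, and 3 higher and 2 lower in homozygous libraries. The shares of all tested genes called in either direction were 35.2% and 35.4%.

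Genes known to lie downstream of endothelin signalling in the lower jaw were read from a separate list. Of 12 listed genes 11 were tested, and none was called between genotypes at E9.0. At E9.5, 2 were called lower in homozygous libraries and none was called higher, with a list median of -0.26. Of all tested genes, 1.89% were called in either direction at E9.5, 2.96% averaged over stages and 0.0675% for the interaction. By sign, 8 lay below 0 and 3 above. Barx1, a homeobox gene of the arches, had 14.1 against 1.86 CPM (-2.91 ± 0.28, adjusted p = 1.46e-04), and held its call without each library. Dlx6, which specifies the lower jaw, had 4.12 against 1.91 CPM (-1.10 ± 0.22, adjusted p = 0.0147), and lost its call without homozygous E9.5 replicate 1 or 3 (adjusted p up to 0.073). Averaged over stages, Dlx6 was the list's 1 call (-0.63 ± 0.16, adjusted p = 0.0428), kept in 3 of 12 fits that left out a library, those without the Rn45s-rich library or without replicate 3 (E9.0) or 2 (E9.5) of the homozygous groups. In the other 9 fits the adjusted p reached 0.124. It was kept in 6 of 9 other alternatives and lost, among others, with total counts only and with a filter at mean count 50 (adjusted p up to 0.106). Its partner Dlx5 differed by -0.35 ± 0.19 (adjusted p = 0.486). Hand2, a gene of the lower arch that depends on Edn1, was at 23.7 against 24.9 CPM (0.07 ± 0.20, 95% interval -0.36 to 0.50), and Hand1 at 6.61 against 6.41 CPM (-0.04 ± 0.14). Hand2 rose with stage in both genotypes, by 1.44 ± 0.22 in heterozygous and 1.08 ± 0.22 in homozygous libraries (adjusted p = 3.36e-04 and 0.00217). Barx1 was the list's 1 call for the interaction (-3.82 ± 0.60, adjusted p = 0.0301), kept in 3 of 12 fits that left out a library, those without a heterozygous E9.5 library. It was also lost with limma-voom and with no filter (adjusted p up to 0.232).

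The list of upper-jaw genes, some of which (Dlx1 and Dlx2) are made in both jaws, gave 2 lower calls among its 7 genes at E9.5. The share of all tested genes called in either direction was 1.89%. Dlx1 had 7.90 against 0.914 CPM (-3.09 ± 0.21, adjusted p = 1.38e-06) and Dlx2 10.6 against 3.04 CPM (-1.78 ± 0.19, adjusted p = 1.95e-04), and both held without each library. Pou3f3 was called lower when averaged over stages (-0.58 ± 0.11, adjusted p = 0.0111), and Dlx1 was called for the interaction (-2.72 ± 0.32, adjusted p = 0.00349).

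Crest genes were read beside Ednrb. Of 15 markers of migrating crest, Tfap2b was called lower at E9.0 (32.2 against 18.7 CPM, -0.78 ± 0.10, adjusted p = 7.73e-04) and lost that call with total counts only (0.108). At E9.5, 5 were called lower, among them Sox10, Foxd3, Pax3 and Tfap2b. Sox10, the crest SOX factor gene, had 8.83 against 3.98 CPM at E9.5 (-1.14 ± 0.21, adjusted p = 0.0148) and lost its call without heterozygous or homozygous replicate 2 (up to 0.0606). Foxd3 had 2.32 against 0.654 CPM (-1.80 ± 0.34, adjusted p = 0.0148), lost without homozygous replicate 2 or 3 (up to 0.0866). Pax3 (-0.65 ± 0.11, adjusted p = 0.00544) and Tfap2b (-1.15 ± 0.10, adjusted p = 1.99e-05) held without each library. Of the 15 differences 13 lay below 0. The uncalled ones ran from -0.86 (Sox8, adjusted p = 0.0733) to 0.52 (Mitf, adjusted p = 0.0724), with Ngfr at -0.23, Tfap2a at -0.17, Snai1 at -0.11, Erbb3 at -0.10, Sox9 and Zeb2 at -0.02, Snai2 at 0.00 and Ets1 at 0.40. At E9.0 also 13 of 15 lay below 0 (median -0.24). The summed level of the list was 529 to 552 against 455 to 473 CPM at E9.0, without overlap, and 349 to 382 against 331 to 356 CPM at E9.5, with overlap. The Ednrb to Sox10 ratio per kilobase at E9.5 was 3.81, 2.55 and 2.94 in heterozygous and 6.38, 7.64 and 9.42 in homozygous libraries. Every homozygous library lay above every heterozygous one, a log2 difference of 1.33 with the smallest exact two-sided permutation p that 3 against 3 can give (0.1, adjusted p = 0.171). Ednrb itself differed by 0.16 and Sox10 by -1.14, so most of this ratio difference is the Sox10 difference already given, and it is no separate result on Ednrb. At E9.0 the ratio overlapped between genotypes (log2 difference 0.63, exact permutation p = 0.2).

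The genes most like each member were those with the smallest root mean square difference of centred log2 CPM over the 12 libraries, among 12027 genes. For Ece1 they were Rgs3 (0.0494), Eya1 (0.0620) and Arhgef28 (0.0780), and for Plcb4 they were Efna5 (0.0602), Zeb2 (0.0746) and Tet1 (0.0752). Mef2c was nearest to Hapln1 (0.0840), Plod2 (0.0859) and Dgkh (0.0922), and Ednra to Itih5 (0.0856), Nol10 (0.0904) and Pabpn1 (0.0960). Edn3 was nearest to Srr (0.101), Csrp2 (0.107) and Stard5 (0.117). For Ednrb the nearest were Gpx8 (0.135), Prnp (0.138) and Dach1 (0.141), and for Edn1 Txnip (0.142), B4galnt3 (0.142) and Prpf3 (0.144). These distances share the libraries and their depth and say nothing of shared control.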

How the data were processed

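Raw RNA-seq counts per gene symbol were deposited by the authors in 1 table with 24421 symbols and 12 library columns, and 0 columns were left without a sample. The submitters' processing notes name cutadapt, STAR, featureCounts, MultiQC and the mm10 build, and the annotation and strand setting are not given in the sources used here. Tests on these counts used edgeR 4.0.16 under R 4.3.3: filterByExpr by group, which kept 14810 genes, TMM scaling and robust quasi-likelihood F tests in 1 model of the 4 group means, with Benjamini-Hochberg adjustment over all tested genes and a threshold of 0.05. limma 3.58.1, DESeq2 1.42.0, other scalings and filters, a GC and length correction, a replicate block and leaving out each library were alternatives. Intervals are 95% and cover the model's error. Ratios were compared by exact two-sided permutation tests. Gene coordinates and lengths come from GENCODE M21 (GRCm38). Scripts were tested on simulated data. The 7 members and all gene lists were chosen with earlier results of these data known. Genes named beside the 7 are Eftud2, listed pathway, jaw and crest genes called in a genotype comparison or the interaction, and the 3 nearest genes of each member. Results on some listed jaw and crest genes are not reported here. Others (Hand1, Hand2, Dlx5, Furin, Mme, Ece2, uncalled crest genes, Gnaq, Gna11, and the untested or marker genes) were named after their values were seen.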

Additional observations from a re-analysis of the deposited data

How the results depend on the processing

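Of 742 member values under alternatives, 655 kept their direction and side of the threshold, 44 lost the call, 12 gained it and 31 changed sign; the causes were not tested. With total counts only, the number of the 7 genes called went from 2 to 0 for genotype at E9.5, from 6 to 2 for stage in heterozygous and from 4 to 2 for stage in homozygous libraries. Averaged over stages it went from 1 to 0 with limma-voom and from 1 to 2 with upper-quartile scaling, DESeq2, the GC and length correction, no filter, or a filter at mean count 50. DESeq2 called 1 gene for the interaction, against 0. Leaving out a library gave 0 called at E9.5, 0 to 1 for the average, 5 to 6 for stage in heterozygous and 3 to 5 in homozygous libraries. Same-numbered replicates did not deviate together (18 pairs, r from -0.167 to 0.109, 5 of 18 matching best with their own number), so no pairing by number was seen. With 3 libraries a group, this check cannot exclude a shared litter or day. With the replicate block, 1 member was called at E9.5 and 0 for the average; adjusted p was then 0.0579 for Ece1 at E9.5, 0.0716 for averaged Edn1 and 0.051 for Ece1 between stages in heterozygous libraries, and the averaged Dlx6 call was lost.

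Sign changes: Ece1 between stages in homozygous libraries was -0.01 with RLE, upper-quartile scaling and DESeq2, -0.06 with the GC and length correction and -0.05 to 0.06 without a library. Plcb4 at E9.5 was 0.00 with the GC and length correction and -0.04 to 0.14 without a library. With total counts only, E9.0 values were 0.17 for Ednra, 0.01 for Plcb4 and 0.08 for Mef2c, averaged Plcb4 was 0.01, and interactions were 0.00 for Ece1, -0.03 for Ednra, -0.11 for Ednrb and 0.00 for Plcb4. Stage in heterozygous libraries was then 0.17 for Edn1, 0.18 for Ece1 and 0.05 for Mef2c, while the median of all genes moved to 0.19 (E9.0), 0.38 and 0.18 (stage) and -0.19 (interaction). Without a library, E9.0 values ranged from -0.11 to 0.01 for Ednra, -0.08 to 0.23 for Ednrb and -0.20 to 0.00 for Mef2c, and interactions from -0.15 to 0.06 for Edn3 and -0.07 to 0.24 for Ednrb. Log2 ratio differences between genotypes ranged from -0.08 to 0.24 (Ednrb to Ednra, E9.0), -0.11 to 0.08 (E9.5) and -0.26 to 0.05 (Edn3 to Edn1, E9.5). Genes called over the whole table numbered 87 at E9.0 (DESeq2 216, limma-voom 51, GC and length 195, without a library 38 to 86), 280 at E9.5 (total counts 123, DESeq2 448, without a library 133 to 252), 439 averaged (GC and length 769, without a library 246 to 411), 10 for the interaction (DESeq2 76, limma-voom 5, GC and length 18, without a library 1 to 16) and 5238 for stage in homozygous libraries (total counts 3326). Higher and lower calls were 64 and 23 at E9.0 (total counts 75 and 3, GC and length 90 and 105), 176 and 104 at E9.5 (58 and 65 with total counts), 270 and 169 averaged (301 and 54, 322 and 447), 2840 and 2376 for stage in heterozygous libraries (6729 and 255, 2235 and 4749), and 2896 and 2342 in homozygous libraries (2897 and 429, 2270 and 4511).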
